A study of Mus musculus with 9 samples.

Results

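A set of 9 genes that encode feedback inhibitors of the ERK pathway was followed across arrays of SCCVII tumour cells: the dual-specificity phosphatases Dusp1, Dusp4, Dusp5 and Dusp6, the Sprouty genes Spry1, Spry2 and Spry4, and the Sprouty-related genes Spred1 and Spred2. They were chosen by name, and all single-gene probe sets carrying these symbols in the platform annotation were taken, which gave 24 probe sets for the 9 genes of 45100 probe sets and 18194 genes in all. SCCVII is a mouse line of oral squamous carcinoma origin, and its total RNA was hybridized to 3 Affymetrix arrays per group. The IR group was derived from tumours that SCCVII cells had formed in stroma irradiated before injection. The NIR group was derived likewise from tumours in stroma that was not irradiated. The PA group was the parental cells in standard culture. The labels describe the IR tumours as hypoxic, the IR lines as invasive and metastatic also in normoxic culture, and the NIR lines as poorly so. The irradiation was given to the stroma before injection, and all groups share the SCCVII origin. The design text calls the 9 samples independent without saying what was separate about them (tumour, line or dish), so a p-value here could reflect technical variation alone.

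Growth factor receptors pass their signal through Ras, Raf and MEK to the kinase ERK, and active ERK enters the nucleus and switches on immediate early genes. The same signal induces its own brakes. DUSP proteins remove the phosphates that activate MAP kinases, DUSP6 in the cytoplasm and with a preference for ERK, DUSP1, DUSP4 and DUSP5 in the nucleus. Sprouty proteins act further upstream, between the receptor and Raf, and SPRED proteins bring the Ras inhibitor neurofibromin to the membrane. Because their transcripts follow ERK activity in many tumour cells, they are often read as a sign of pathway output.

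Across the 3 comparisons of IR, NIR and PA, a single difference among the 9 genes passed the test: Dusp6 was 1.70-fold higher in IR than in NIR. Values are RMA estimates of expression in log2 units, differences are log2 differences from a limma fit of all 9 arrays, and a call means a Benjamini-Hochberg adjusted p below 0.05 over all 18194 genes. In IR against NIR, 1 of the 9 members rose, 0 fell and 8 did not pass, where 1.65% of all genes were called, 0.786% higher and 0.863% lower. In IR against PA, limma called 0 of 9 members, against 1.06% of all genes (0.297% higher, 0.758% lower). In NIR against PA it also called 0 of 9, against 1.3% of all genes (0.379% higher, 0.918% lower). Tested as single probe sets, 1 of the 24 passed in IR against NIR, that of Dusp6, against 0.881% of all probe sets, and 0 passed in IR against PA (0.69%) and in NIR against PA (0.836%). At an unadjusted p below 0.05 there were 3 of 9 members in each comparison, against 15.9% of all genes in IR against NIR, 8.59% in IR against PA and 12.1% in NIR against PA. The median difference of the members was 0.30 in IR minus NIR, 0.10 in IR minus PA and -0.17 in NIR minus PA, and the median of all genes was 0.0014, 0.0043 and 0.0046. The comparisons share arrays, so these medians are not independent of each other.

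**Figure D1:**
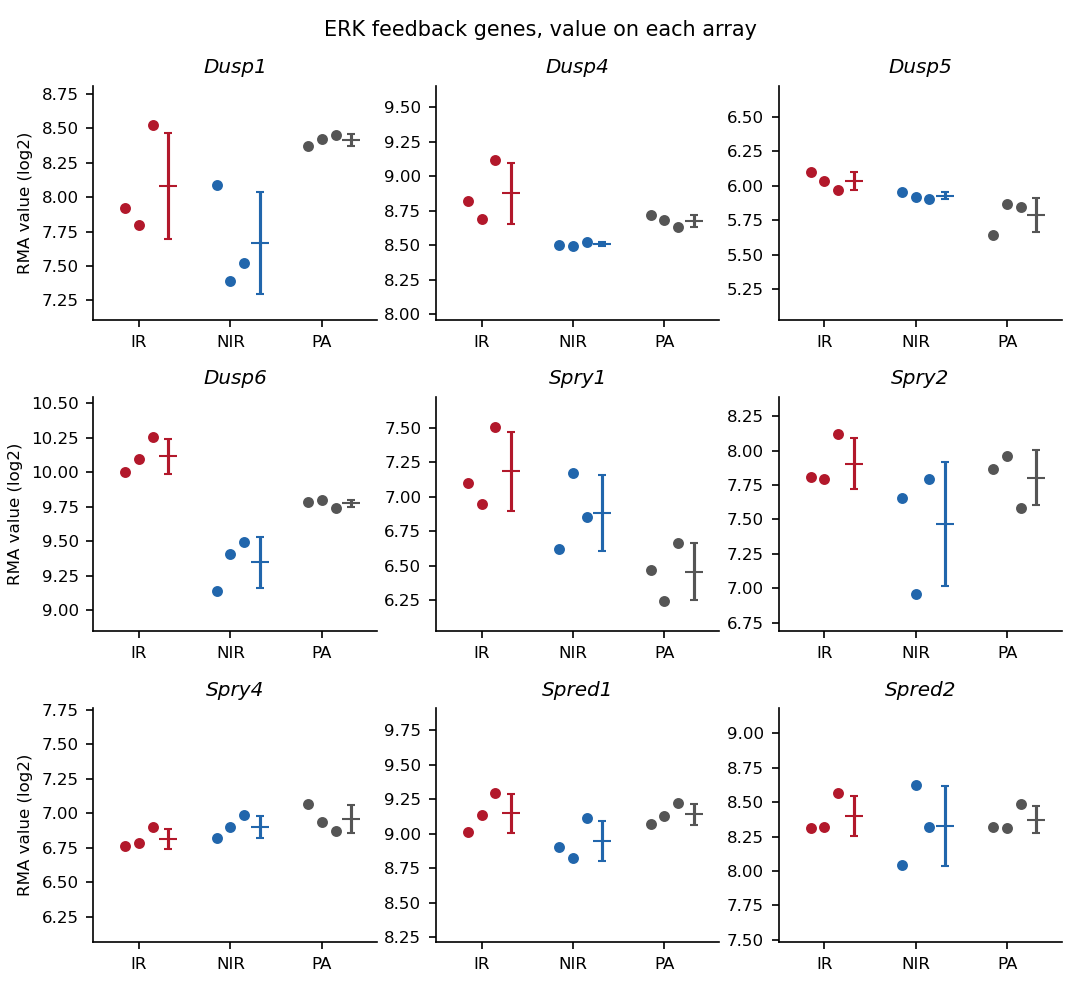
RMA value (log2) of each of the 9 ERK feedback genes on every array, with IR, NIR and PA from left to right; points are single arrays, the bar beside them is the mean with its SD (n = 3), and every panel spans the same log2 range. The 3 IR points of Dusp6 lie above all PA points, and these above all NIR points, whereas the groups of Spred2 overlap throughout.

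Of the 24 probe sets, 23 had a mean above 4.49, the median of the whole table, and the exception was the dimmest of the Spred1 probe sets at 3.17. For each gene the brightest probe set is described first. The array medians ran from 4.45 to 4.52. The tumour cells read high for the simple epithelial keratin Krt8, at 12.61 to 12.85 over the 9 arrays, while the squamous keratin Krt14 (3.66 to 4.03), Cdh1 (3.24 to 3.37), Trp63 (4.15 to 4.38) and Dsp (3.19 to 3.40) stayed below the table median on every array. Of the 10 epithelial and squamous markers, the other 6 were above it on every array. Lists of markers of other cell types were read as well. The mean of 10 macrophage genes ran from 4.99 to 5.53 on the IR arrays. It ran from 5.01 to 5.16 on the NIR arrays and from 4.76 to 4.87 on the PA arrays. The highest value was that of array IR3, on which Lyz2 read 8.25 against 5.71 and 5.78 on IR1 and IR2. On the same arrays Cd68 read 5.83 against 4.81 and 4.71, Tyrobp 5.39 against 4.85 and 4.72, and Mrc1 5.41 against 4.86 and 5.11. Within IR, Cd14 and Itgam were also highest on IR3, and Ptprc, Csf1r, Adgre1 and Fcer1g were not. Of the 10 macrophage genes, 5 were above the table median on every array. Another 3, Ptprc, Adgre1 and Itgam, were below it on every array. In the order IR, NIR and PA, the array means of the fibroblast list were 7.11 to 7.22, 6.96 to 7.32 and 6.76 to 6.92, those of the endothelial list 4.19 to 4.21, 4.25 to 4.41 and 4.20 to 4.30, and the 6 measured lymphocyte genes 4.47 to 4.58, 4.56 to 4.60 and 4.43 to 4.55. The PA arrays are of parental cells in culture. On them the fibroblast-list genes Col1a2 (11.09 to 11.50) and Col3a1 (11.16 to 11.33) also read high, so these genes do not mark host cells alone. Lum read 5.27 to 5.40 in PA, 5.62 to 6.49 in IR and 6.02 to 6.97 in NIR. Dcn read 7.66 to 8.01, 8.88 to 9.38 and 8.33 to 8.93 in the same groups. Lum, Dcn and Col3a1 were higher on every IR and NIR array than on any PA array. The other genes of the list overlapped PA in IR, in NIR or in both. Whether host cells were present was not tested. Of the 10 fibroblast-list genes, 7 were above the table median on every array and 2 below it on every array. In such bulk RNA, a larger share of cells that express a gene and more RNA per cell cannot be told apart.

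Dusp6, the cytoplasmic ERK phosphatase (Entrez gene 67603), read 10.002, 10.09 and 10.25 in IR, 9.14, 9.41 and 9.49 in NIR, and 9.78, 9.79 and 9.74 in PA. All IR arrays were higher than all PA arrays, and all PA arrays were higher than all NIR arrays. Mean and SD over 3 arrays were 10.12 ± 0.13 for IR, 9.35 ± 0.19 for NIR and 9.77 ± 0.029 for PA. IR minus NIR was 0.77 (SE 0.098, 95% interval 0.56 to 0.98, limma adjusted p = 0.00498). Against PA, the differences were 0.34 in IR (95% interval 0.13 to 0.56, limma adjusted p = 0.194) and -0.43 in NIR (95% interval -0.64 to -0.21, limma adjusted p = 0.0639), so the place of PA between the derived lines was not separated from either at the threshold. Dusp6 was also the only member to differ among the 3 groups by the F test (limma adjusted p = 0.00382), which called 2.34% of all genes. The rise in IR over NIR kept its call whichever single array was left out, with differences of 0.67 to 0.84 and limma adjusted p from 0.00773 to 0.0236, and without IR3 it was 0.70 (limma adjusted p = 0.0156). It lost the call when the spread was estimated without the PA arrays (limma adjusted p = 0.0613). The difference in NIR against PA passed without IR3 (limma adjusted p = 0.0421) or without NIR3 (-0.50, limma adjusted p = 0.0481).

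The promoter windows of the 3 genes with the largest differences, Dusp6, Dusp1 and Spry1, and of Dusp5, which like Dusp1 holds a searched motif, are printed to show the sequence just upstream of their start. Each is the 250 bases before the RefSeq start of the gene in GRCm38.p6, written from 5′ to 3′ on the gene's strand, with motif matches in capitals. The windows are chr10:99262981-99263230 on the plus strand for Dusp6, chr3:37639697-37639946 on the plus strand for Spry1, chr17:26508473-26508722 on the minus strand for Dusp1 and chr19:53528895-53529144 on the plus strand for Dusp5.
Dusp6: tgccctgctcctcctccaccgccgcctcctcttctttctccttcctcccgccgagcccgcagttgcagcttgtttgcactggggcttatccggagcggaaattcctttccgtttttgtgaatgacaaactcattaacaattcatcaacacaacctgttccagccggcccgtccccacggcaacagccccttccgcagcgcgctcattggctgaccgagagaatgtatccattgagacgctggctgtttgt
Spry1: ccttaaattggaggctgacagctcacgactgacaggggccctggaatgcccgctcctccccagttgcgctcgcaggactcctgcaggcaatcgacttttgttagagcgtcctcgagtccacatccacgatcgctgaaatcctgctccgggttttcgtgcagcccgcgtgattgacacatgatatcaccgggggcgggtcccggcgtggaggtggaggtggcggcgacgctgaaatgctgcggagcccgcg
Dusp1: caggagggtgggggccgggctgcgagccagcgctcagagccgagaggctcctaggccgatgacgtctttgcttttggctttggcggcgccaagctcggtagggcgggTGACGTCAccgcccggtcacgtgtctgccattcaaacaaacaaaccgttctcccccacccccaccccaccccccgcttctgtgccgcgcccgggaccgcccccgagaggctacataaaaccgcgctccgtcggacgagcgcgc
Dusp5: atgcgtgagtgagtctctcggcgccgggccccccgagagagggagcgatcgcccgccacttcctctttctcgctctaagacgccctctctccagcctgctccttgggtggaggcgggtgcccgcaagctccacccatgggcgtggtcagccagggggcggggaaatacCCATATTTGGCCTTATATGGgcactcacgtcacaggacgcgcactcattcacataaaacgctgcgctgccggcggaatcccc
Both strands were searched for the AP-1 motif TGANTCA, the cAMP response element TGACGTCA, the ETS motif CCGGAA and the CArG box, the element bound by serum response factor. The window of Dusp1 held 1 cAMP response element, beginning 143 bases before the start, and that of Dusp5 held 2 adjacent CArG boxes, beginning 82 and 72 bases before it. The windows of Dusp6, Spry1, Spry2, Spred1 and Spred2 held none of the 4 motifs, which says only that these letters are not in these windows. Of 32851 promoter windows of the same length, 1.55% held the cAMP response element, 1.47% a CArG box, 6.75% the AP-1 motif and 12% the ETS motif.

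Among the nuclear phosphatases, Dusp4 followed the order of Dusp6 in its means, Dusp1 was highest in PA, and Dusp5 varied little. Dusp4 (Entrez gene 319520) read 8.82, 8.69 and 9.12 in IR, 8.50, 8.49 and 8.52 in NIR, and 8.72, 8.68 and 8.64 in PA. Its NIR arrays lay close together and below every array of IR and PA, while IR and PA overlapped. IR minus NIR was 0.37 (95% interval 0.16 to 0.58, limma adjusted p = 0.0820), and the differences against PA were 0.20 in IR (limma adjusted p = 0.627) and -0.17 in NIR (limma adjusted p = 0.524). Without IR3 the IR minus PA difference of Dusp4 was 0.077. A second quantile normalization put the IR against NIR difference just past the threshold (0.39, limma adjusted p = 0.0495).

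Dusp1, which acts on p38 and JNK as well as ERK (Entrez gene 19252), read 7.92, 7.80 and 8.52 in IR, 8.09, 7.39 and 7.52 in NIR, and 8.37, 8.42 and 8.45 in PA. The PA arrays agreed closely and lay above all NIR arrays, and a single array of each derived group, IR3 and NIR1, stood above the other two of its group. NIR minus PA was -0.75 (95% interval -1.17 to -0.33), the largest difference of any member in that comparison, with a limma adjusted p of 0.0996. It passed without NIR1 (-0.96, limma adjusted p = 0.0291), without IR3 (limma adjusted p = 0.0287) and with array weights (-0.71, limma adjusted p = 0.0378). The other Dusp1 differences were 0.41 for IR minus NIR (limma adjusted p = 0.325), which was 0.19 without IR3 and 0.62 without NIR1, and -0.33 for IR minus PA (limma adjusted p = 0.704), which was -0.55 without IR3 and -0.19 without IR2.

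Dusp5, an ERK-directed nuclear phosphatase (Entrez gene 240672), read 6.10, 6.04 and 5.97 in IR, 5.95, 5.92 and 5.90 in NIR, and 5.64, 5.87 and 5.84 in PA. No pair of groups overlapped, yet the steps were small. The differences were 0.11 for IR minus NIR (limma adjusted p = 0.547), 0.25 for IR minus PA (limma adjusted p = 0.257) and 0.14 for NIR minus PA (limma adjusted p = 0.516), with array weights lifting IR minus PA to 0.33 (limma adjusted p = 0.0251). Without PA1, NIR minus PA was 0.069 for Dusp5. In IR against NIR the groups did not overlap for 3 of 9 members, Dusp4, Dusp5 and Dusp6, all higher in IR, against 8.69% of all genes, and 0 were lower without overlap, against 9.4%. In IR against PA this held for 3 members, Dusp5, Dusp6 and Spry1, all higher in IR, against 7.26% of all genes, and 0 were lower without overlap, against 7.43%. In NIR against PA, Dusp1, Dusp4 and Dusp6 were lower without overlap, against 7.73% of all genes, and Dusp5 was higher, against 7.82%.

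**Figure D2:**
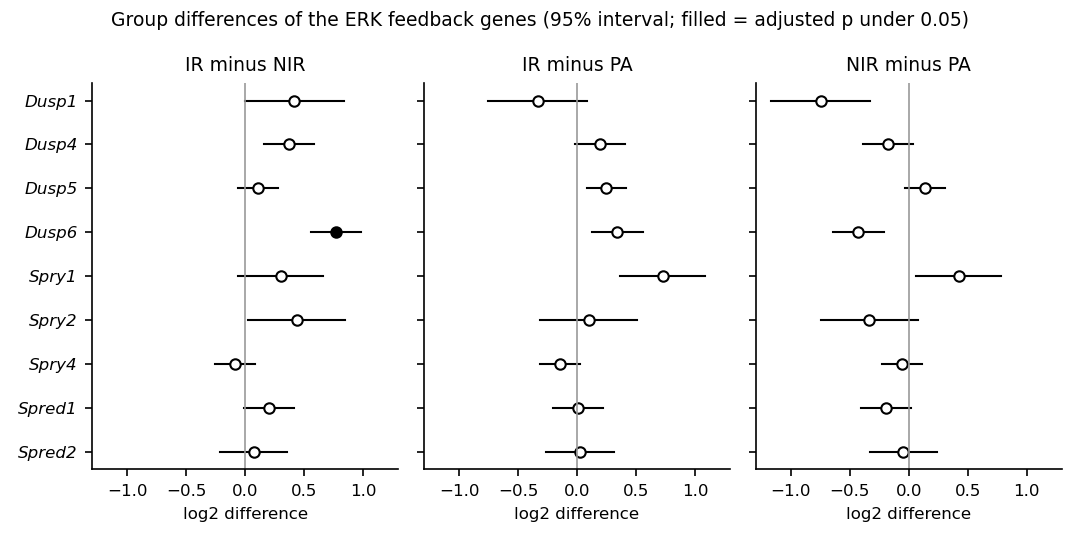
Log2 differences of the 9 ERK feedback genes in IR minus NIR, IR minus PA and NIR minus PA, each with its 95% interval from the limma fit; filled points have an adjusted p below 0.05. The filled point is Dusp6 in IR minus NIR at 0.77; Spry1 has the highest open point in IR minus PA at 0.73 and Dusp1 the lowest in NIR minus PA at -0.75.

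No Sprouty gene passed the test in any comparison. Spry1 (Entrez gene 24063), an inhibitor of receptor tyrosine kinase signalling, read 7.10, 6.95 and 7.50 in IR, 6.62, 7.17 and 6.85 in NIR, and 6.47, 6.24 and 6.66 in PA. Both derived groups had higher means than PA, and the IR arrays did not overlap with the PA arrays. IR minus PA was 0.73, a 1.65-fold difference (95% interval 0.37 to 1.09), which missed the threshold with a limma adjusted p of 0.0720. It was 0.64 with array weights (limma adjusted p = 0.0105) and passed narrowly without NIR2 (0.73, limma adjusted p = 0.0498), and without IR3 it was 0.57 (limma adjusted p = 0.201). NIR minus PA was 0.42 (limma adjusted p = 0.320) and IR minus NIR was 0.30 (limma adjusted p = 0.417). The IR minus NIR value was 0.14 without IR3 and 0.17 without NIR1, and the NIR minus PA value was 0.28 without NIR2.

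Spry2 (Entrez gene 24064), which like Spry1 restrains signalling between receptor and Raf, read 7.81, 7.79 and 8.12 in IR, 7.66, 6.96 and 7.79 in NIR, and 7.87, 7.96 and 7.58 in PA. Array NIR2 was the lowest of the 9. IR minus NIR was 0.44 (limma adjusted p = 0.281) and 0.18 without NIR2, and NIR minus PA was -0.34 (limma adjusted p = 0.522) and -0.080 without NIR2. IR minus PA was 0.10 (limma adjusted p = 0.940). A second, dimmer probe set of Spry2 gave -0.056 for IR minus NIR.

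Spry4 (Entrez gene 24066), another family member induced by growth factors, read 6.76, 6.78 and 6.90 in IR, 6.82, 6.90 and 6.99 in NIR, and 7.07, 6.94 and 6.87 in PA. It was the only member whose IR minus NIR difference was negative, at -0.088 (95% interval -0.26 to 0.084, limma adjusted p = 0.657), and the mean of its 4 probe sets gave 0.0014. Its brightest probe set gave -0.14 for IR minus PA (limma adjusted p = 0.680) and -0.057 for NIR minus PA (limma adjusted p = 0.834). All 4 probe sets were lower in IR than in PA, with differences of -0.33 to -0.11, and lower in NIR than in PA, with differences of -0.43 to -0.057, with none past the threshold when every probe set was tested. The lowest of these limma adjusted p were 0.654 and 0.314.

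The Spred genes had the smallest differences of IR from PA. Spred1 (Entrez gene 114715) read 9.02, 9.14 and 9.30 in IR, 8.90, 8.83 and 9.11 in NIR, and 9.07, 9.13 and 9.22 in PA. Its groups overlapped in all comparisons, with differences of 0.20 for IR minus NIR (95% interval -0.0071 to 0.41, limma adjusted p = 0.334), 0.0090 for IR minus PA (limma adjusted p = 0.992) and -0.19 for NIR minus PA (limma adjusted p = 0.457). All 8 Spred1 probe sets were higher in IR than in NIR, by 0.033 to 0.32, though they read the same RNA on the same arrays and are not replicates, and none passed (limma adjusted p from 0.370 to 0.927 over all probe sets). Their means over the 9 arrays ran from 9.08 down to 3.17, and the probe set with the largest difference was dim, at 5.16. In NIR minus PA, 7 of the 8 Spred1 probe sets were negative.

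Spred2 (Entrez gene 114716) read 8.31, 8.32 and 8.57 in IR, 8.04, 8.62 and 8.32 in NIR, and 8.32, 8.31 and 8.49 in PA. The NIR arrays spanned those of both other groups. The differences were 0.071 for IR minus NIR (95% interval -0.21 to 0.36, limma adjusted p = 0.859), 0.026 for IR minus PA (limma adjusted p = 0.983) and -0.045 for NIR minus PA (limma adjusted p = 0.934). Over its 5 probe sets the differences ran from -0.078 to 0.071 across the 3 comparisons, and leaving out 1 array could turn the sign of each comparison.

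**Figure D3:**
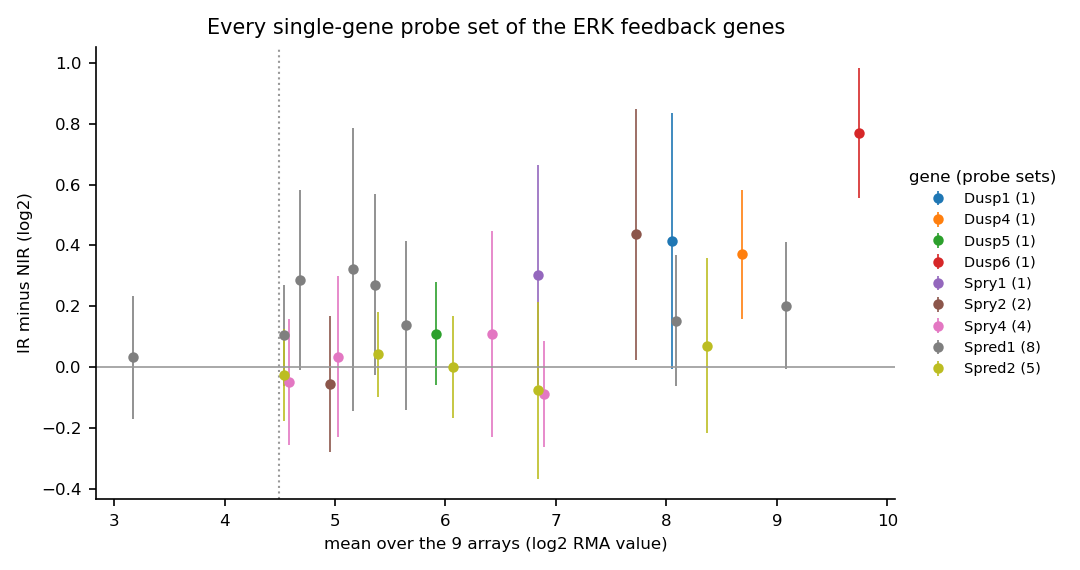
IR minus NIR difference (log2) of all 24 single-gene probe sets of the 9 ERK feedback genes against their mean over the 9 arrays (log2 RMA value); bars are 95% intervals from a limma fit of every single-gene probe set, colours are genes with their number of probe sets, and the dotted line marks the table median of 4.49. Dusp6, at 0.77, is the highest point and the 8 Spred1 points lie at 0.033 to 0.32, while the Spry4 and Spred2 points lie on both sides of 0.

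Within the IR group the members shared 1 feature: array IR3 was the highest of the 3 IR arrays for 8 of the 9 genes, all but Dusp5. Over all genes, IR3 was the highest IR array for 34.4%. The same array had the highest macrophage marker mean, though not every gene of that list was highest on it, as given above. Any link between these markers and the members' values was not tested. Without IR3 the Dusp6 difference between IR and NIR remained at 0.70, whereas those of Dusp1 (0.19), Spry1 (0.14) and Spred1 (0.13) were smaller by over 1.5 times and that of Spred2 turned to -0.013. In NIR, NIR3 was highest for 5 members, against 28.0% of all genes, and in PA, PA3 was highest for 4, against 37.8%.

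The rest of the ERK pathway was read from lists of genes with known roles, and few of their members were called. These lists were chosen with earlier results of these data known. Of all genes, 1.65% were called in IR against NIR, 1.06% in IR against PA and 1.3% in NIR against PA. None of the 6 other MAP kinase phosphatases (Dusp2, Dusp7, Dusp8, Dusp9, Dusp10 and Dusp16) was called by limma in any comparison, and their median was -0.060 in IR minus NIR. Of these, Dusp9, like Dusp6 a cytoplasmic phosphatase that prefers ERK, is named after its values were seen. It stood lower in IR than in NIR without overlap (8.74 against 9.29, difference -0.56, limma adjusted p = 0.0567). Of 9 other brakes on Ras and receptors, 1 rose in IR against NIR and 0 fell, and the same count held in IR against PA. The gene was Errfi1, an inhibitor of the EGF receptor, with a mean and SD over 3 arrays of 9.16 ± 0.056 for IR, 8.78 ± 0.036 for NIR and 8.79 ± 0.063 for PA. Its differences were 0.38 in IR minus NIR (limma adjusted p = 0.0223) and 0.37 in IR minus PA (limma adjusted p = 0.0214). The call against NIR was lost without IR1, IR2, IR3, NIR1 or NIR3 (limma adjusted p reached 0.0805 without IR1) and in the fit of IR and NIR alone (limma adjusted p = 0.0941), and the call against PA without any IR or PA array (it reached 0.134 without PA1) and with the replicate number as a block (limma adjusted p = 0.0641).

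Of the ERK cascade itself, 13 of 21 listed genes were measured, and the others were not analysed here. The cascade had 0 calls in IR against NIR and in IR against PA and 1 fall in NIR against PA, that of Map2k1, which encodes the kinase MEK1 (mean and SD of 3 arrays 8.97 ± 0.046 in NIR and 9.28 ± 0.033 in PA, difference -0.30, limma adjusted p = 0.0413). That call was lost without any single array but IR3 (it reached a limma adjusted p of 0.165 without PA1), in the fit of NIR and PA alone (limma adjusted p = 0.0824), with every probe set tested (limma adjusted p = 0.0561), with a second quantile normalization (limma adjusted p = 0.0503) and with the replicate number as a block (limma adjusted p = 0.0924). None of the 12 growth factor receptors, Egfr, Met and Fgfr1 among them, and none of 9 measured genes of the p38 and JNK kinases was called in any comparison. Receptor medians were -0.064 in IR minus NIR, -0.019 in IR minus PA and 0.059 in NIR minus PA.

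Of 19 measured ERK-responsive genes outside the members, 3 rose and 1 fell in IR against NIR, 2 rose in IR against PA, and 1 rose and 1 fell in NIR against PA. The shares of all genes called were 1.65%, 1.06% and 1.3%, and this list too was chosen with earlier results known. The transcription factor genes Egr1 and Fos and the immediate early gene Ier2 had the order of Dusp6, with IR highest and NIR lowest. Egr1 averaged 8.72 ± 0.27 in IR, 4.78 ± 0.47 in NIR and 6.75 ± 0.36 in PA, and Ier2 averaged 9.18 ± 0.22, 8.38 ± 0.12 and 8.73 ± 0.12 in the same groups (SD, n = 3 each). Mean and SD of Fos over 3 arrays were 4.89 ± 0.093 for IR, 4.08 ± 0.12 for NIR and 4.39 ± 0.11 for PA, so that its NIR and PA means lay below the table median of 4.49. The IR minus NIR differences of Egr1, Ier2 and Fos were 3.94, 0.80 and 0.80 (limma adjusted p = 1.27e-05, 0.00754 and 0.00244), and that of Ier2 lost its call in the fit of IR and NIR alone (limma adjusted p = 0.0625). In IR minus PA, Egr1 gave 1.97 (limma adjusted p = 0.000942) and Fos 0.50 (limma adjusted p = 0.0182). The Fos call against PA was lost without IR1, IR3, PA2 or PA3 (it reached a limma adjusted p of 0.104 without PA2) and with the replicate number as a block (limma adjusted p = 0.0546). In NIR minus PA, Egr1 gave -1.97 (limma adjusted p = 0.000736). The AP-1 gene Fosl1 ran the other way, at 9.61 ± 0.085 in IR, 10.10 ± 0.23 in NIR and 9.59 ± 0.035 in PA, with -0.48 in IR minus NIR (limma adjusted p = 0.0428) and 0.51 in NIR minus PA (limma adjusted p = 0.0365). Its first call was lost on leaving out any array other than NIR1 (it reached a limma adjusted p of 0.119 without IR2), and its second without IR1, IR2 or any PA array (it reached 0.151 without PA3). Both were lost in the fits of the compared groups alone (limma adjusted p = 0.160 and 0.0760) and with the replicate number as a block (0.0661 and 0.0648), and the first also with every probe set tested (0.0552). Other targets of ERK signalling, such as Etv4, Etv5, Ccnd1 and Phlda1, were not called, with IR minus NIR differences of -0.099, -0.13, 0.073 and 0.13.

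**Figure D4:**
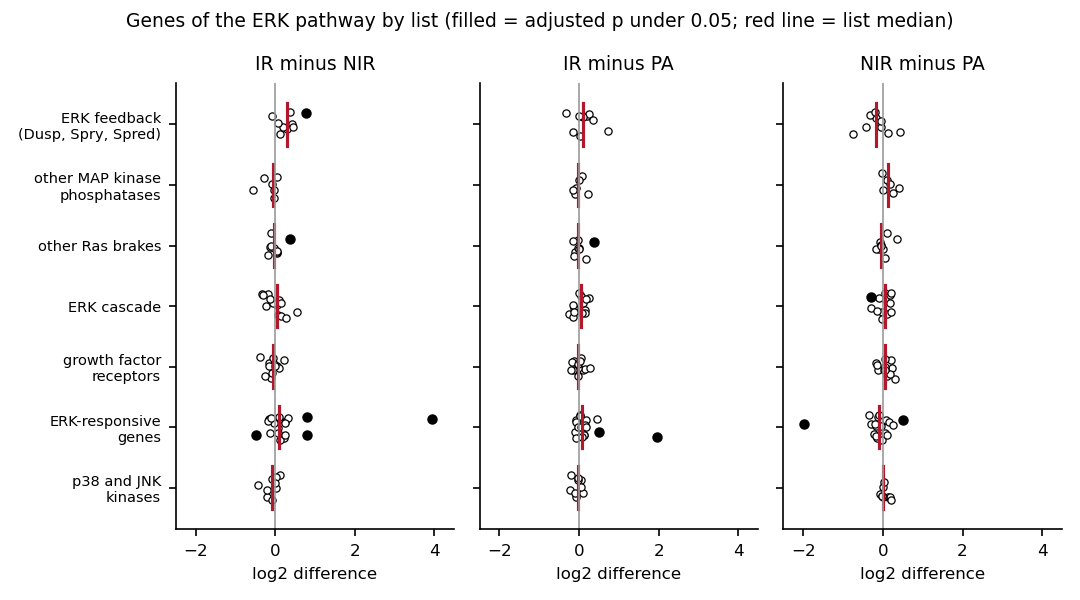
Log2 differences of the measured genes of 7 ERK pathway lists in IR minus NIR, IR minus PA and NIR minus PA; each circle is a gene, filled where the limma adjusted p is below 0.05, and the red line is the list median. The filled circle of the feedback row is Dusp6 at 0.77, and the one farthest right is Egr1 at 3.94.

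The genes whose values over the 9 arrays were most like those of Dusp6, among named genes with a mean of at least 6, were Pcbd2 (Pearson r = 0.974), Hacl1 (r = 0.972) and Bcl2l11 (r = 0.969). These correlations describe 9 arrays that fall into 3 groups.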

How the data were processed

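Total RNA of 9 SCCVII samples was measured on Affymetrix mouse arrays. A Qiagen RNeasy Mini Kit and biotin labelling were used, per the labels' protocols. The authors made the deposited log2 values with RMA, per the submitters' processing notes (the scale is read from their range; version and settings are not given in the sources used here). They ran from 2.47 to 14.0 and were used without further scaling.

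Of 45100 probe sets, 34944 were annotated to a single gene, with symbols updated through Entrez identifiers. The brightest probe set per gene was tested with limma 3.58.1 in R 4.3.3 (lmFit, eBayes, a mean per group, 2-sided, 6 residual and 5.48 prior degrees of freedom), and every single-gene probe set was tested separately. The procedure was tested on simulated data. The members and lists were chosen with earlier results of these data known. All members were described; of other lists at most 4 called genes per comparison, and the 3 genes most like each called member, were named. Alternatives were a signal filter, other probe set rules, 2 scalings, eBayes and weight settings, fits of compared groups, a replicate block and leaving out each array. Promoters came from RefSeq (GRCm38.p6). The number of arrays limits precision.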

Additional observations from a re-analysis of the deposited data

How the results depend on the processing

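Of 513 member values recomputed, 484 kept their direction and their side of the threshold, 1 lost its call, 11 gained one and 17 changed sign. The call of Dusp6 in IR against NIR was lost only in the fit of the compared groups, which left 0 members and 11 genes called, with fewer arrays to estimate the spread. A second quantile normalization called 2 members there. Array weights called 2 members (467 genes) in IR against PA and 2 (382 genes) in NIR against PA, and eBayes with trend and robust settings called 1, Dusp6, in NIR against PA (limma adjusted p = 0.0399); the cause was not tested.

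Leaving out single arrays gave 1 called member each time in IR against NIR (77 to 271 genes), 0 to 1 in IR against PA (99 to 214 genes) and 0 to 2 in NIR against PA (121 to 370 genes). Signs turned only among small differences. When probe sets were averaged per gene, Spry4 gave 0.0014 in IR minus NIR and Spred2 gave -0.015 in IR minus PA. In IR minus PA, median centring gave -0.0037 for Spred1, and array weights gave -0.0012 for Spry2, -0.013 for Spred1 and -0.0018 for Spred2. Over the single arrays left out, Spred2 ran from -0.072 to 0.22 in IR minus NIR, -0.058 to 0.084 in IR minus PA and -0.19 to 0.098 in NIR minus PA, while in IR minus PA Spry2 ran from -0.0089 to 0.18 and Spred1 from -0.065 to 0.076.

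With a replicate block, Dusp6 kept its call in IR minus NIR (0.77, limma adjusted p = 0.0074) and the called members stayed at 1, 0 and 0 in the 3 comparisons. Arrays of the same number in different groups correlated at -0.20 to 0.097 in their deviations from the group means, and 1 of 9 arrays was closest to its own number. Arrays of different number in different groups correlated at -0.12 (NIR1 and PA3) to 0.25 (NIR2 and PA3). These values gave no sign of pairing by number. They cannot show that arrays of the same number were handled separately. With 3 arrays per group, small differences such as those of Spred2 were not separable from 0.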

Other observations

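Identical values on 2 or more arrays occurred in 20339 of the 34944 single-gene probe sets (58.2%) and in 13 of the 24 member probe sets. A dim Spred1 probe set read 4.71 on all 3 PA arrays. Dusp9 averaged 8.74 in IR, 9.29 in NIR and 8.88 in PA, and its NIR arrays lay above the arrays of both other groups. NIR minus PA was 0.41 for Dusp9 (limma adjusted p = 0.203).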
